A study of Drosophila melanogaster with 2 samples.

Results

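The intergenic peaks of the cato-eGFP fusion protein were 335 regions of the Drosophila melanogaster genome, 12.2% (95% Wilson interval 11.0 to 13.5%) of the 2746 peaks in the authors' list thresholded by irreproducible discovery rate (IDR). IDR is estimated from how the replicates rank the peaks, and the threshold was the authors' own. A peak was a member when its summit lay outside every annotated gene, transposable elements not counted as genes, and more than 500 bp from any annotated transcription start site. Of the 1213 summits outside genes, 878 lay within 500 bp of a start site and were left out. The remaining IDR peaks were 1497 promoter peaks (within 500 bp of a start site), 858 deep intronic peaks and 56 peaks in exons. The data came from chromatin immunoprecipitation sequencing of whole embryos of both sexes at 0 to 16 h, from a transgenic line that expresses cato with green fluorescent protein (GFP) at its C-terminus. The antibody recognised GFP. Both libraries belong to 1 condition and carry the labels biological replicate 1 and 3. The read depth is unknown, no control library was analysed here, and whether untagged cato was also present is not given in the sources used here. With 1 condition, positions in the genome were compared with each other. In chromatin of whole embryos, a site bound in few cells and a site weakly bound in many cannot be told apart.

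cato is a basic helix-loop-helix transcription factor of the atonal family, known from the development of the peripheral nervous system. Such factors bind as dimers to the E-box, written CANNTG, in enhancers and promoters. In flies many enhancers of developmental genes lie in the gaps between genes and can act on a start site many kilobases away, so the nearest gene need not be the target of a bound region.

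The members were AT-rich at the summit and GC-richer around it, no E-box class passed a test against the sequence beside the summit, and their density on the large arms ran from 4.90 per Mb on X to 13.1 on 2L. Sequences reaching 50 bp to each side of the summit are shown for the 6 strongest members on the chromosome arms whose sequence is printed here, on the plus strand of dm6, from the RefSeq copy of the assembly, with any E-box in capitals. They show how the strongest members differ in letters.
Peak near sp3, chr3R:21520329-21520429: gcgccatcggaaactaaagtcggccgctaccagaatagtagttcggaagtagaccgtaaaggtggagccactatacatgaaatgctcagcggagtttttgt
Peak near CG31668, chr2L:2202368-2202468: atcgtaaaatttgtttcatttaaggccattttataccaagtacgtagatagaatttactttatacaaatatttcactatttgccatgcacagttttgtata
Peak near lncRNA:CR45643 and tara, chr3R:16222463-16222563: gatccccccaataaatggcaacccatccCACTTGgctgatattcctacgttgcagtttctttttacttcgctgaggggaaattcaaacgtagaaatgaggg
Peak upstream of chinmo, chr2L:1638649-1638749: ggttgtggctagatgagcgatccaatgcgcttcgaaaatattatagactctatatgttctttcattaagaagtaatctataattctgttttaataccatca
Peak near CG43131, chr3R:5113226-5113326: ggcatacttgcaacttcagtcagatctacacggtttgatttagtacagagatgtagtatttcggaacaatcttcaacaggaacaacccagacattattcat
Peak near RasGAP1, chr3L:9855877-9855977: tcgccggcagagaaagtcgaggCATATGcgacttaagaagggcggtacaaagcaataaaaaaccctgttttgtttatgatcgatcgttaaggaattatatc
Of these 6 windows, 2 held an E-box, CACTTG (class CAAGTG) beside tara and CATATG beside RasGAP1, and 4 held none. Their G+C content ran from 26.7% near CG31668 to 48.5% near sp3.

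A sequence word, CACTGA followed 1 letter later by A (CACTGANA), stood to the side of many summits. CACTGA was among the words that passed a 6-mer comparison in wider windows. Its longer forms, CACTGANA and TACACTGA, were looked at after those values had been seen, in the same peaks. They are therefore described by counts with no test of their own. On either strand within 150 bp of the summit, 77 of the 335 members held CACTGANA (22.99%), against 22 of 334 windows of the same length 1000 bp to the right (6.59%) and 20 of 335 to the left (5.97%). Among all 2746 IDR peaks 13.8% of the summit windows held it, 17.6% of deep intronic and 9.55% of promoter windows. The shorter CACTGA was in 31.0% of the members' summit windows, against 15.3% of windows to the right and 14.0% to the left. The 4 strongest members that hold it within 100 bp and whose sequence is printed are shown with 100 bp to each side of the summit, plus strand of dm6, with the word in capitals.
Peak between slp1 and slp2, chr2L:3832438-3832638: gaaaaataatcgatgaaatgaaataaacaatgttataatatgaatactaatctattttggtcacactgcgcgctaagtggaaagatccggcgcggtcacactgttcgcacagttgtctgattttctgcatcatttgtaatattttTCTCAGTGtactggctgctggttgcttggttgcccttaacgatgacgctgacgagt
Peak near lncRNA:CR42794, chrX:5696426-5696626: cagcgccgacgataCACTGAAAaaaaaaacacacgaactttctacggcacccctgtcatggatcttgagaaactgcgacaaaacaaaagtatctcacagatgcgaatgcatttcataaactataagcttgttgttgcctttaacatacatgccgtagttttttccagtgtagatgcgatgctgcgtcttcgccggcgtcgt
Peak near the gene by, chr3R:9534216-9534416: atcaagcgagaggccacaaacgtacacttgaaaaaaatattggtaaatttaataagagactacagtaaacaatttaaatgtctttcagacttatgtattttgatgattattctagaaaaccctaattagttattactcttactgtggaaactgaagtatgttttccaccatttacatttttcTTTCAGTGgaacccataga
Peak near lncRNA:CR45937, chr3L:18235914-18236114: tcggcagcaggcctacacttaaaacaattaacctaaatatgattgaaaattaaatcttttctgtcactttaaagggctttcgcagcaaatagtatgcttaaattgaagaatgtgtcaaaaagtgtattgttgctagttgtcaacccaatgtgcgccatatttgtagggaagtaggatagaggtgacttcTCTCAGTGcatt
The word reads TNTCAGTG on the plus strand where it lies on the minus strand, as in the peaks between slp1 and slp2, near the gene by and near lncRNA:CR45937, where it lay to the right of the summit. In the peak near lncRNA:CR42794 it lay on the plus strand, to the left.

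The word was placed and turned in a regular way. Of its 68 occurrences between 50 and 150 bp from a member's summit, 37 lay to the left and 31 to the right, and 64 had their 3′ end pointing to the summit while 4 pointed away. All but 1 of these occurrences were separate copies in the genome (67 copies). There were 46 occurrences at 50 to 100 bp, 22 at 100 to 150 bp, 8 at 150 to 200 bp and 3 to 8 in each 50 bp step beyond. Within 50 bp of the summit there were 23. Deep intronic peaks had a like layout, with 109 of 124 occurrences pointing to the summit, and promoter peaks had 84 of 113. For the shorter CACTGA, 86 of 96 occurrences pointed to the summit at members, 166 of 198 at deep intronic and 148 of 230 at promoter peaks. A longer form, TACACTGA, was in 30 members within 150 bp against 3 windows on each side, and 23 of its 24 occurrences at 50 to 150 bp pointed to the summit. The 77 members that hold CACTGANA had a median signal of 94.1 and the 258 without it 96.1, and 72.7% and 68.6% of them were among the strongest peaks of both replicates.

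**Figure D1:**
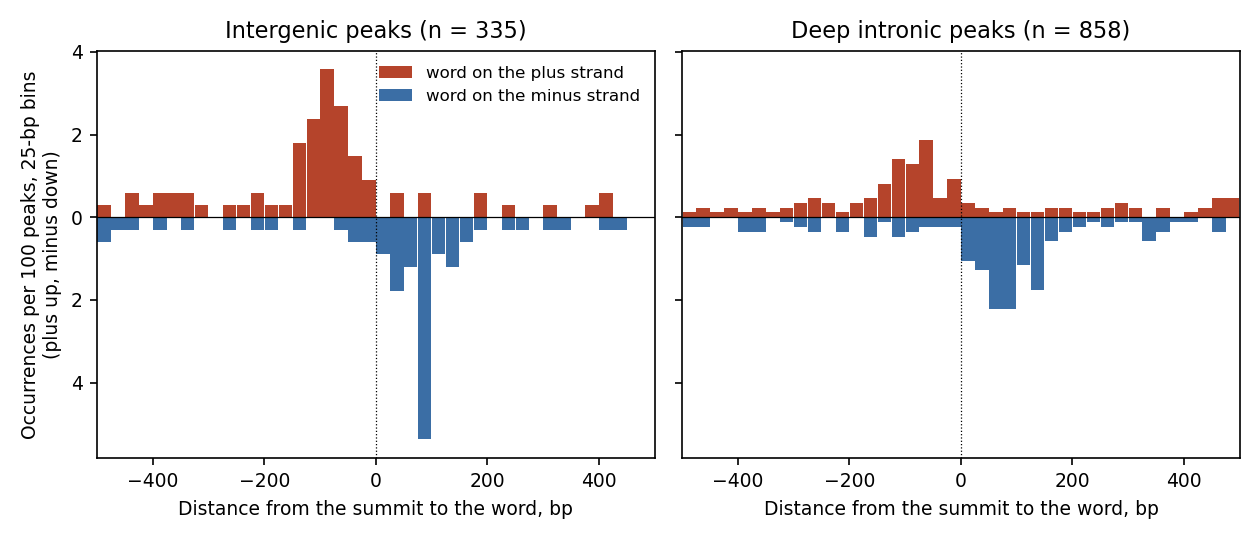
Occurrences of CACTGANA per 100 peaks in 25-bp bins by distance from the summit, for the 335 intergenic peaks (left) and the 858 deep intronic peaks (right), upward for the plus strand and downward for the minus strand. Plus-strand copies gather to the left of the summit and minus-strand copies to the right, mostly 50 to 150 bp away.

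Member summits were poorer in G+C than their surroundings. The median G+C content within 50 bp of the summit was 32.7%, against 41.6% in a window of the same length centred 1000 bp to the right. The summit was lower in 237 members and higher in 84, with a median difference of -9.90 percentage points (exact sign test, two-sided, p = 4.95e-18, n = 334). Against the window to the left, with a median of 40.6%, it was lower in 232 members and higher in 97 (exact sign test, p = 6.66e-14). Of the right-hand windows 254 were themselves outside genes and more than 500 bp from a start site, and among 253 such pairs the median difference was again -9.90 percentage points (exact sign test, p = 5.86e-16). The low point was narrow: mean G+C over 51-bp steps was 32.95% at the summit, 44.6% at 250 bp to the right and 41.4% at 1000 bp. Deep intronic and promoter summits had a median of 30.7%, so the dip was shared by the other classes of peak. Among members, G+C content and signal were nearly unrelated (Spearman's rho 0.05 over 335 sites of the same libraries).

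**Figure D2:**
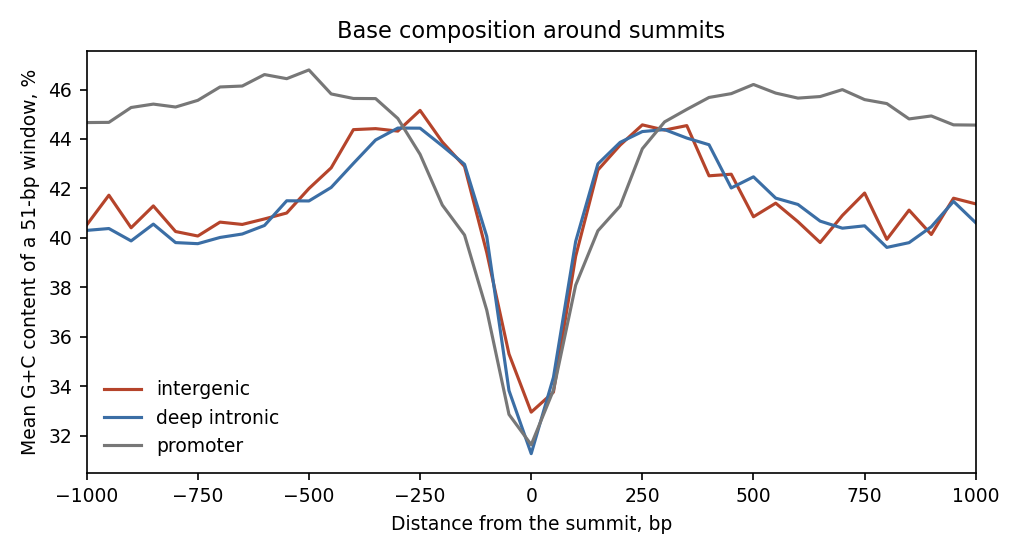
Mean G+C content in 51-bp windows by distance from the summit for intergenic, deep intronic and promoter peaks. All 3 curves dip at the summit, and the intergenic curve falls to 32.95% between shoulders near 45% about 250 bp away.

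E-boxes were not more frequent at member summits than beside them, in windows not matched for G+C content. Since G+C content was lower at summits, these shares do not settle whether E-boxes are favoured for the base composition, which was not tested. Any E-box, on either strand, was in 37.4% of 334 summit windows and in 42.2% of the windows 1000 bp to the right (ratio 0.89, exact McNemar test, adjusted p = 0.875). CAAATG was the most common of the 10 E-box classes at summits, with 12.9% of summit windows and 10.5% of flank windows. In the windows 1000 bp to the left its share was 13.1%. CACATG was in 7 summit and 22 flank windows (exact McNemar test, unadjusted p = 0.00813, adjusted p = 0.236) and CAACTG in 13 and 26 (adjusted p = 0.632). Over the 10 classes, any E-box and 18 motifs of other factors, 29 in all, exact McNemar tests with Benjamini-Hochberg adjustment called 0, and 2 had an unadjusted p under 0.05. In the strongest 84 members, the 84 after them, the next 84 and the weakest 83, 41.7%, 28.6%, 38.1% and 41.0% of the summit windows held an E-box in that order.

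Set against the other classes of peak, members differed from promoter peaks in 1 motif. CGATAG, a sequence bound by the boundary factor BEAF, was in 5 of 335 intergenic windows (1.49%) and in 91 of 1497 promoter windows (6.08%; Fisher's exact test, two-sided, adjusted p = 0.00599). TATCGATA, bound by the factor DREF of housekeeping promoters, was in 1 intergenic and 41 promoter windows and did not pass (Fisher's exact test, adjusted p = 0.0548). The 3 strongest members with CGATAG lay 8207 bp from the start of CG7560 (signal 160.0), 604 bp from tRNA:Leu-CAA-2-2 (105.4) and 2947 bp from CG12507 (102.7). Any E-box was in 37.3% of intergenic windows, 34.3% of deep intronic windows (Fisher's exact test, adjusted p = 0.778) and 30.5% of promoter windows (unadjusted p = 0.0163, adjusted p = 0.141). Against deep intronic peaks 0 of the 29 motifs passed the Fisher's exact tests, with 3 at an unadjusted p under 0.05. These were CAGGTAG, bound by the early embryonic factor Zelda, in 4 of 335 against 1 of 858 windows, AGGTGGCGC, bound by CTCF, in 3 against 0, and TGACTCA, bound by AP-1, in 0 against 11.

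Every 6-mer was compared between summit and flank in the same way, and 4 passed an adjusted p of 0.01 with a ratio of at least 1.5 (exact McNemar test). The AT-only words ATATTA (72 summit and 29 flank windows, exact test, adjusted p = 0.00820) and TTAAAA (110 and 61, adjusted p = 0.00849) were higher at summits. CAGCAG (7 and 37) and ATGCCG (2 and 22, both adjusted p = 0.00820 by the exact test) were lower. At an unadjusted p under 0.05 there were 345. None of the 4 passed with the flank on the left or after leaving out the 7 members that had a stronger member within 500 bp. In windows reaching 100 bp to each side 25 words passed, 22 of them higher and 10 of these AT-only. By the same exact test the others included CACTGA (80 and 36 windows, adjusted p = 0.00190), ACACTG (63 and 22, adjusted p = 6.21e-04), AGTGTA (75 and 27, adjusted p = 2.02e-04), CTACAC (48 and 16, adjusted p = 0.00766) and GTAGTA (39 and 10, adjusted p = 9.22e-04). CACTGA and ACACTG overlap in letters, and both are part of TACACTGA.

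Intergenic peaks ranked lower in both libraries than promoter peaks. The lists of the single libraries are labelled as peaks and background for input to IDR, so an entry low in them can be background. Of the 335 members, 233 (69.6%, 95% Wilson interval 64.4 to 74.2%) overlapped a peak among the 2746 strongest of each replicate. Among all IDR peaks the share was 75.7%, among deep intronic peaks 72.6% and among promoter peaks 79.0%. These shares are given with no test, since the IDR list was chosen on the accord of both libraries. Of the other members, 39 were among the strongest in replicate 1 alone, 45 in replicate 3 alone and 18 in neither. The median rank was 1612 in replicate 1 and 1582 in replicate 3. All of the 84 strongest members were in both sets, and 14 of the 83 weakest. The signal of the overlapping peaks in the libraries had a Spearman's rho of 0.65 over 334 members, and the member without a replicate 3 peak lay on 2L at 23512869, at the end of the assembled arm.

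The deposited signal, a score of the authors' peak caller on a scale that is comparable within a list, ran over the members from 68.9 to 788.1 with a median of 95.1 and quartiles of 78.8 and 135.9. Deep intronic peaks had a median of 102.9 and promoter peaks 111.5. Above the median of the IDR list stood 142 members (42.4%, 95% Wilson interval 37.2 to 47.7%) and 54.2% of promoter peaks, so that the shares differed by -11.9 percentage points (adjusted p = 2.09e-04 by a two-sided Fisher's exact test). For deep intronic peaks the share was 46.5%, and the difference of -4.12 percentage points did not pass (adjusted p = 0.219 by the same exact test). Among the strongest 10% of IDR peaks were 20 members (5.97%), against 12.8% of promoter peaks. With signal taken from replicate 3 alone, the difference from deep intronic peaks was -6.71 percentage points and passed (Fisher's exact test, adjusted p = 0.0387).

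**Figure D3:**
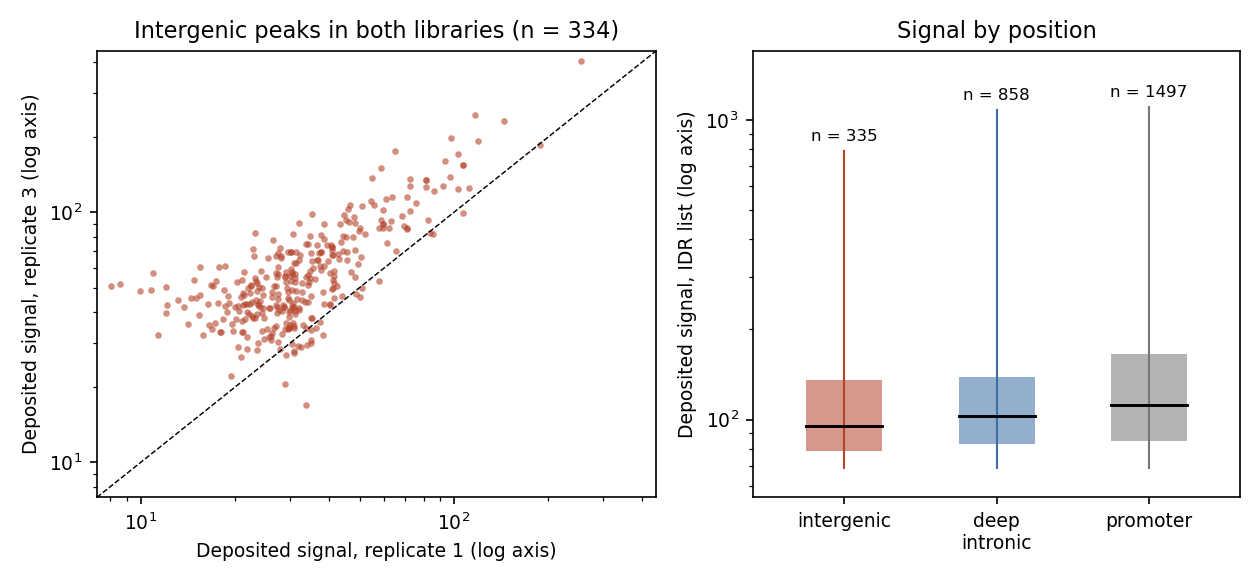
Left, deposited signal in replicate 1 and replicate 3 for the 334 intergenic peaks with a peak in both libraries, on log axes with the line of equal values, which is only a guide since the libraries' scales differ. Right, signal in the IDR list by class, with the quartiles as boxes, medians as black lines and the full range as thin lines. The intergenic median of 95.1 lies below the medians of 102.9 and 111.5.

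The strongest member stood in the Su(z)2 to CG13323 gap on 2R, at 13035337, with a signal of 788.1 in the IDR list. It was ranked 8 in replicate 1 (signal 254.1) and 5 in replicate 3 (402.6), and its nearest start site, of CG13323, was 11919 bp away. Su(z)2 and its neighbour Psc encode related Polycomb group proteins, which keep developmental genes repressed. In the gap between CG13321 and Psc, on the same arm, were members of signal 356.4 and 305.0, ranked 147 and 165 in replicate 1 and 69 and 141 in replicate 3. The second strongest member, 549 bp from the start of sp3 on 3R, had a signal of 462.9 and ranks of 21 and 84. The member next in order was on 2L, 3748 bp from CG31668 (signal 440.0, ranks 49 and 44), and the member after it lay near the cyclin gene CycB on 2R (405.5, ranks 85 and 33). Each of these was high in both libraries.

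Further members of the strongest 15 had signals of 260.4 to 366.7. On 3R, 882 bp from lncRNA:CR45643 and 3138 bp from tara, which encodes a nuclear regulator related to the trithorax group, a summit had a signal of 366.7, and summits of 257.5 and 225.6 lay at 3747 and 1146 bp from the same gene. The member between slp1 and slp2, which encode forkhead factors of the segmentation cascade, had 264.8 (ranks 480 and 163). The member 642 bp from RasGAP1, whose product switches off Ras, had 299.1 (ranks 111 and 152). The remaining members of the 15 lay near CG43131 (310.9), DNAlig3 (281.6), CG33453 (266.7) and lncRNA:CR45411 (260.4). The strongest on X had 252.2, 597 bp from lncRNA:CR42794, and the strongest of the 2 on chromosome 4 had 202.4, 1237 bp from lncRNA:CR43437.

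Some members differed strongly in rank between the libraries, whose signal scales differ. The member 1149 bp from corto, on 3R at 5088221, was ranked 24918 in replicate 1 (signal 8.04) and 1607 in replicate 3 (50.7). The member 20688 bp from CG6244 was ranked 21509 and 1554. In the other direction, the member 3762 bp from lncRNA:CR46243 on X was ranked 1399 in replicate 1 and 10469 in replicate 3. All 3 were weak in the IDR list, with signals of 71.3 to 74.2.

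Chromosome 3L held the most members, 116 of the 335, followed by 2L with 88, 3R with 62, 2R with 41, X with 26 and chromosome 4 with 2. The sequence in which a summit could have been a member came to 36.5 Mb, or 9.19 members per Mb (95% exact Poisson interval 8.23 to 10.2). By arm the density was 13.1 per Mb on 2L (10.5 to 16.1), 12.8 on 3L (10.6 to 15.3), 8.08 on 3R (6.20 to 10.4), 5.51 on 2R (3.95 to 7.47) and 4.90 on X (3.20 to 7.17). The intervals of 2L and 3L overlapped each other and neither reached those of the other 3 arms. Part of this sequence lies in assembled heterochromatin beyond the outermost IDR summits, so densities between those summits were added after seeing the data. They came to 12.2 per Mb in all, 20.4 on 3L (16.9 to 24.5), 13.1 on 2L (10.5 to 16.2), 10.5 on 2R (7.53 to 14.2), 9.68 on 3R (7.42 to 12.4) and 5.64 on X (3.68 to 8.26). Between those summits 3L was the densest large arm, and its interval overlapped that of no other large arm. The interval of 2L overlapped those of 2R and 3R. On 2L the last summit lay at 23512869 of 23513712 bp. That arm therefore went only from 6.71 to 6.69 Mb, while 3L went from 9.08 to 5.68 Mb. The megabase of 2L from 22 Mb held no IDR peak and the part from 23 Mb held 1. The arms were not trimmed alike, so these counts do not settle whether 3L was denser than 2L. X lay below 2L and 3L, with no overlap, in both counts. The 2 members on chromosome 4 gave 8.15 per Mb (0.988 to 29.5), or 20.4 between the outermost summits (2.48 to 73.8). Deep intronic peaks stood at 14.5 per Mb of deep intron on 3R to 20.2 on X among the large arms, or 15.9 on 2L to 21.3 on 2R between the outermost summits, and chromosome 4 held 0 (0 to 6.42, or 0 to 12.7 between the outermost summits). On X the deep intronic interval (17.5 to 23.1) was above the intergenic one in both counts. The same held on 2R (13.6 to 18.9) and 3R (12.6 to 16.7). On 2L and 3L the intervals of both classes overlapped in both counts. The intervals cover counting error only. They treat members as independent sites, although 24 of the 116 on 3L lay in 1 megabase, from 11 to 12 Mb. Overlap or its absence is thus a loose guide to differences between arms.

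**Figure D4:**
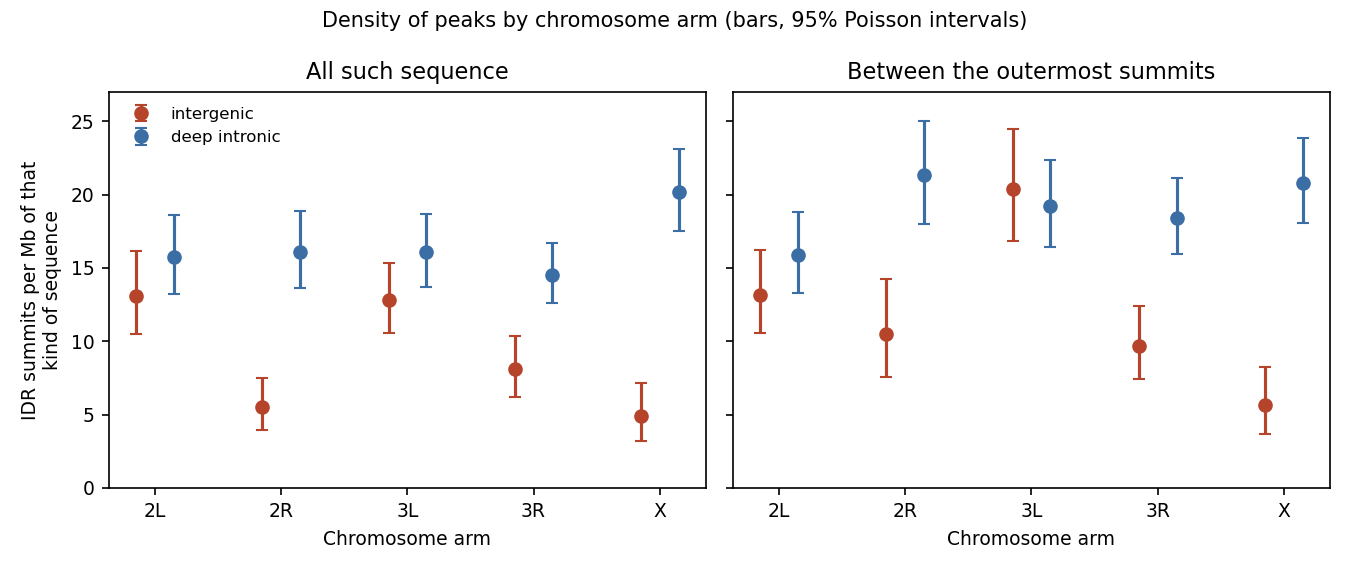
Intergenic and deep intronic IDR summits per megabase of intergenic and deep intronic sequence on the 5 large chromosome arms, with exact 95% Poisson intervals, over all such sequence (left) and between the outermost summits (right, added after seeing the data). The intergenic density runs from 4.90 on X to 13.1 on 2L on the left, and on the right 3L rises to 20.4.

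The density was highest next to start sites. There were 21.7 members per Mb at 500 to 1000 bp from a start site (16.6 to 27.8), 16.0 at 1000 to 2000 bp, 11.8 at 2000 to 5000 bp, 7.53 at 5000 to 10000 bp and 3.17 farther away (2.27 to 4.30). Between the outermost summits the nearest of these bins had 22.7 (17.3 to 29.1) and the farthest 7.12 (5.11 to 9.66), in the same order. Promoter peaks stood at 82.5 per Mb of promoter sequence. The median member was 2754 bp from the nearest start site of any gene, with quartiles of 1297.5 and 5787.5 bp, and 4437 bp from the nearest protein-coding one. That nearest start site belonged to a protein-coding gene for 216 members, a non-coding RNA for 105, a tRNA for 12 and a pseudogene for 2. Just outside the limit were summits at 490 bp from CG12402 (signal 119.1), 498 bp from lncRNA:CR44828 (91.0) and 499 bp from CG17896 (222.1). Just inside were summits at 507 bp from peb (83.3), 508 bp from TpnC47D (84.9) and 513 bp from CG5973 (71.6). The farthest were 96953 bp from CR41519 at the end of 2L, 36666 bp from CG43245 and 33911 bp from vvl. Distance and signal were nearly unrelated (Spearman's rho -0.06 over 335 sites).

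By the direction of the neighbouring genes, 93 members lay in divergent gaps, where both genes are read away from the gap, at 12.6 per Mb (10.2 to 15.4). Tandem gaps held 169 at 9.17 per Mb (7.84 to 10.7) and convergent gaps 72 at 7.76 per Mb (6.07 to 9.77), so the intervals of divergent and convergent gaps did not overlap. Between the outermost summits the densities were 14.6 (11.8 to 17.9), 12.0 (10.3 to 14.0) and 10.5 per Mb (8.18 to 13.2), and there the 3 intervals overlapped. Divergent gaps are bordered by 2 starts. The median member lay 2251 bp from a start site in divergent gaps, 2227 bp in tandem and 4363 bp in convergent gaps. Whether distance to start sites bears on these densities was not tested. Annotated transposable elements cover 10.8% of all the sequence searched and held 1 member, in a copy of INE-1 with a signal of 158.7. How reads from repeats were aligned is unknown, and whether members avoid these elements was not tested.

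Of 6528 gaps with sequence in which a member could lie, 257 held one, 202 of them a single member, and 55 gaps held the other 133. Gaps over 20000 bp long make up 50.8% of the sequence searched and held 80 members. Whether members share gaps more often than gap length alone would give was not tested. Gaps with 2 or more members had a median signal of 110.8, against 90.6 for members alone in their gap. In all, 6 gaps held 4 or more. The 75047 bp between NijA, an adhesion protein, and CG43245 on 3L held 6 members, all in the part nearer to CG43245, with signals of 74.2 to 206.2. The 19063 bp between lncRNA:CR44363 and CG7560 on 3L held 6 within 9525 bp, with signals of 76.9 to 160.0. The gap between tRNA:Ile-TAT-1-2 and CG13898 held 5, and the gap after scyl, a growth inhibitor induced by low oxygen, held 5 within 5136 bp. The gap between robo2, an axon guidance receptor, and CG43401 on 2L held 4, of signal 72.3 to 133.1.

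The cluster of strongest signal lay upstream of chinmo on 2L, which encodes a BTB zinc finger protein that sets the temporal identity of neurons. Between lncRNA:CR44603 and lncRNA:CR45695 were summits of signal 138.1, 350.3, 287.6 and 247.5, and 2 more, of 138.4 and 109.0, lay in the next gap, up to chinmo itself. The 6 were 18406 to 1770 bp from the start of chinmo. The summits of 350.3 and 287.6 were 200 bp apart and shared the same peak in replicate 1 (signal 102.95, rank 124), so they are not independent sites. The others were in both libraries, at ranks of 230 to 1997 in replicate 1 and 237 to 939 in replicate 3.

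**Figure D5:**
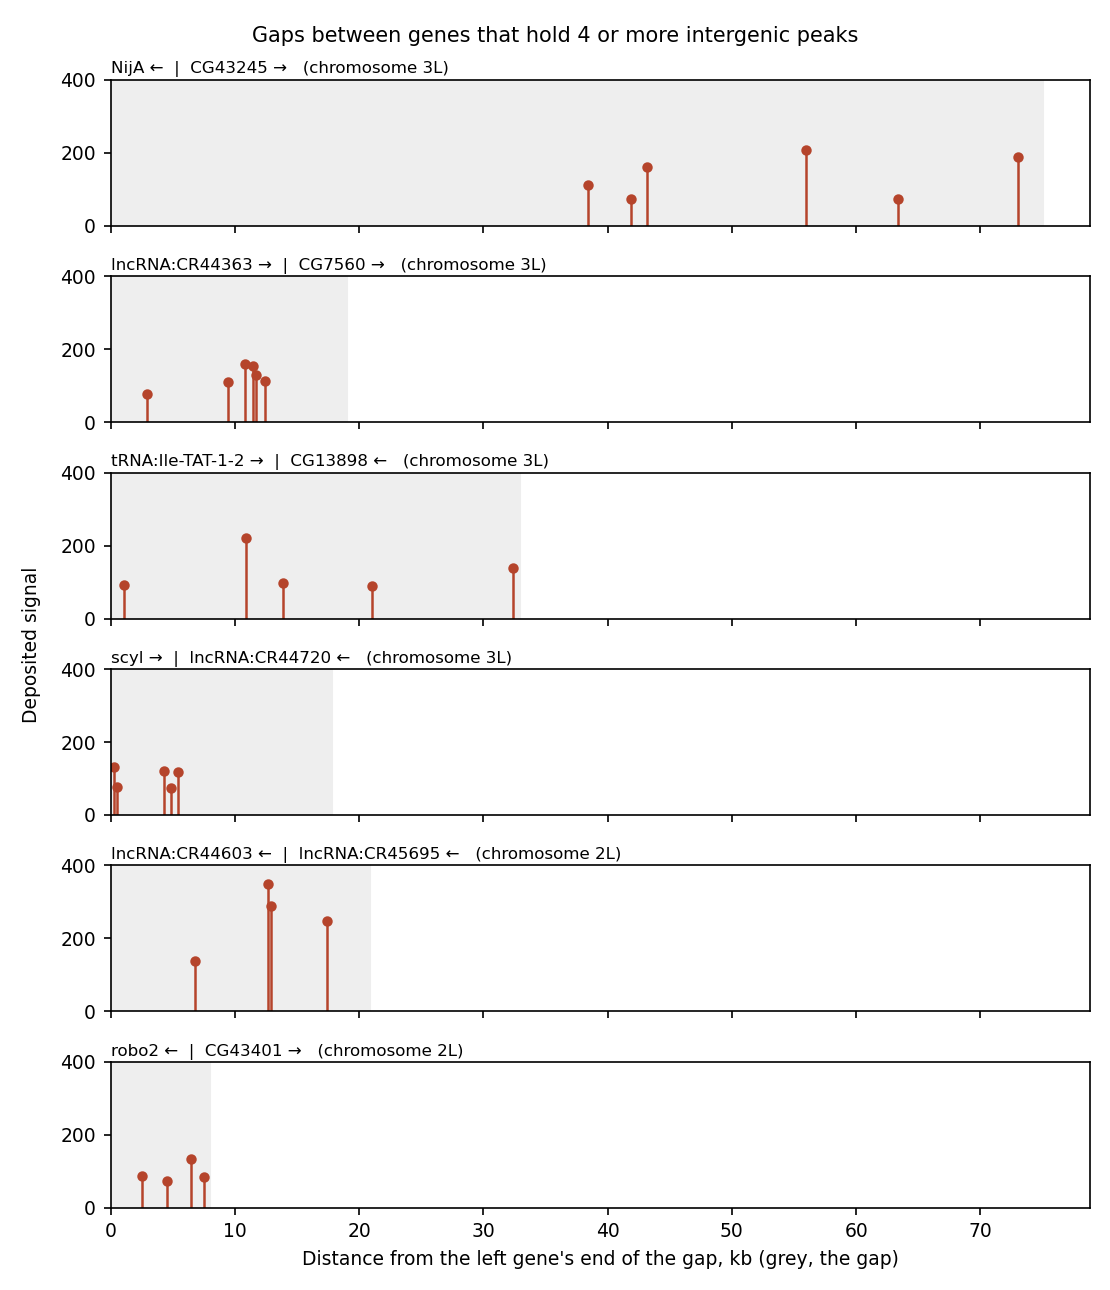
Signal of each member by its distance from the left end of the gap, for the 6 gaps with 4 or more members, with the gap in grey and arrows for the strand of the genes at its sides. In the NijA gap all 6 members lie beyond 38 kb, and the members upstream of chinmo are the highest.

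Along the chromosomes, 5 of 137 megabase intervals held 77 members (22.99%) and 36 held none. The interval from 11 to 12 Mb on 3L held 24 members of 42 IDR peaks in all, at 92.3 per Mb of sequence searched (59.1 to 137.3). It holds the gaps of scyl and CG7560, and members near CG6168, CG6163 and CG44362. The first megabase of 3L held 16 and those from 14, 1 and 3 Mb on 2L held 13, 12 and 12.

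By nearest protein-coding start site, the members fell to 254 of 13945 genes (1.82%), 52 of them with 2 or more members and 14 with 3 or more. CG43245 had 8, CG7560 and chinmo 6 and scyl 5. Nearness is not evidence that a gene is the target, and 7550 coding genes had no sequence in which a member could be nearest to them. Long gaps give a gene more room, so each list is also given as members per Mb of the sequence nearest to its genes, with no test.

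Of the 18 gene lists, segmentation genes had the highest share of genes nearest to a member. Of 22 genes listed as gap and pair-rule genes, 7 (31.8%) were nearest to at least 1 member: bcd, drm, ems, oc, odd, slp1 and slp2. In the strict sense bcd and drm belong to neither class. The 7 genes had 11 members, 37.9 per Mb of the list's own sequence (18.9 to 67.8) against 9.19 over all genes. Between the outermost summits the density over all genes was 12.2, and the list's sequence was not trimmed in that way. By density the Notch pathway genes stood higher, at 59.7 per Mb from 3 members (12.3 to 174.5), and neuroblast genes near them, at 34.6 from 7 (13.9 to 71.3), and the 3 intervals overlapped. Of the gap and pair-rule list the strongest member was that of slp2 (264.8). Next came one 6047 bp from oc, the head gap gene orthodenticle (123.5), and one 14035 bp from ems, another homeobox gene of the head (105.8). slp1 and slp2 are neighbours, and drm and odd lie near them. The members of these genes all lie in the same stretch of 2L, from 3555821 to 3841161 bp. The members at bcd (76.2), drm (72.5) and odd (69.9 and 73.7) were weak. Near signalling genes of the segment, a member 5240 bp from ptc, the Hedgehog receptor, had 185.6, one 11097 bp from wg, the fly Wnt ligand, had 113.7 and one 1722 bp from dpp, a BMP ligand, had 95.6. They were 3 of 24 genes of that list (12.5%, 20.05 members per Mb, 4.13 to 58.6).

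Of 24 proneural and sense organ genes 3 were nearest to a member (12.5%, against 1.82% over all genes, and 19.1 per Mb, 3.93 to 55.7): salr, a zinc finger gene (94.1, 29045 bp away), sens-2, a paralogue of the sense organ factor senseless (84.6), and edl, an inhibitor of ETS factors (72.7). Of 21 genes of the Notch pathway 3 were (14.3%): E(spl)malpha-BFM of the Bearded family (136.0), the ligand gene Ser (84.9) and E(spl)m3-HLH, a repressor of proneural genes (76.1). Of 22 neuroblast genes 2 were (9.09%), chinmo with 6 of the 7 members and the T-box gene mid (142.6, 15203 bp away). Of 24 genes of differentiated neurons and 13 of glia none was.

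Of 31 mesoderm and muscle genes, 2 were nearest to a member (6.45%, 24.6 per Mb, 6.70 to 62.95): bin, a forkhead gene of the visceral mesoderm (141.2 and 100.5), and the T-box gene Doc2 (121.3). Among Hox genes and cofactors, hth (85.0) and tsh (74.996) were 2 of 11 (18.2%, 18.3 per Mb, 2.22 to 66.3). Of 21 tracheal and epidermal genes 1 was (4.76%, 5.36 per Mb, 0.136 to 29.9), the POU gene vvl (92.7, 33911 bp away). Of 15 endoderm, fat body and haemocyte genes none was. Families of receptors, enzymes and structural proteins had shares of 0 to 2.82% and 0 to 12.5 members per Mb. Of 179 chemoreceptor genes 4 were nearest to a member (2.23%; Gr93a had 139.2 and 107.3 and Gr89a 134.0), of 71 odorant-binding and chemosensory protein genes 2 (CheA75a, 196.4 and 120.8, and Obp56i, 86.4) and of 120 cytochrome P450 and UGT genes 2 (Cyp6v1, 126.1 and 81.8, and Ugt37C1, 92.9). Of 121 cuticle protein genes 1 was (Cpr76Ba, 170.0) and of 92 ribosomal protein genes 1 (RpS23, 91.8). Of 58 trypsin and serpin genes and 115 histone genes none was.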

How the data were processed

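The data are chromatin immunoprecipitation sequencing of cato-eGFP in whole embryos, 2 libraries of 1 condition. The files are peak lists that the authors deposited on dm6. Each peak carries a signal value on the scale of the authors' peak caller, as deposited. The sources used here name neither that caller nor the aligner and give no read depth, so a peak's counting error is unknown. The IDR list was made by the authors from both libraries. Signal values were tested inside a single list, and across the replicate lists they were only set side by side and correlated by rank. Of the 335 members 312 have the same width of 404 bp.

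Annotated genes are those of Ensembl release 115, BDGP annotation 6.54. Bases were read from RefSeq's copy of that assembly. Summits were classed as promoter (within 500 bp of a start site), exon, intron or intergenic. Peaks were matched between lists by an overlap of at least 1 bp. Sequence tests used windows reaching 50 bp to each side of the summit and a flank centred 1000 bp to the right, with exact McNemar, sign or Fisher's tests, two-sided, Benjamini-Hochberg adjusted and called at 0.05 (0.01 with a ratio of 1.5 for 6-mers). Densities divide members by the bases outside genes and over 500 bp from any start site. Python 3.11.15, numpy 2.4.6, scipy 1.17.1 and matplotlib 3.10.9 were used, and the tests were tested on simulated data.

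Named members are the strongest 15, the strongest per chromosome, those of gaps with 4 or more, up to 3 per gene list, the 3 nearest to and farthest from a start site, the 3 just inside the limit, the 3 strongest with a motif that passed, and, outside this rule, discordant members and those with CACTGANA. The members, motifs and 18 gene lists were chosen with earlier results of these data known. P-values treat members as separate sites of the same 2 libraries and say nothing of spread between embryos.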

Additional observations from a re-analysis of the deposited data

How the results depend on the processing

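The count of members stayed within 1.5 times of the main value under every alternative run for it, from 274 to 475. With each list shortened to its stronger 50%, the strongest peaks of both replicates held 106 members (31.6%, and 40.7% of all IDR peaks). Leaving out a replicate, the difference from deep intronic peaks in the share above the median signal was -6.71 without replicate 1 and -5.15 without replicate 3 percentage points, and only the first passed. Motif calls against flanks were 0 to 1 without a replicate (CACATG, lower, without replicate 1) and 1 with the flank 2000 bp away (CAGCTG, lower). 6-mer calls were 25 in windows reaching 100 bp to each side, 0 with the flank to the left (302 unadjusted), and, in alternatives chosen after seeing the data, 0 without the 7 members close to a stronger one (332 unadjusted) and 0 where the flank also lay outside genes (234 unadjusted); the last 2 tested 327 and 253 pairs. Motif calls against promoters were 0 in windows reaching 25 bp to each side and 4 in those reaching 100 bp (CAGCTG, DREF, BEAF and TATA box, all lower). Counting the coding gene on each side gave 441 genes. Density was 12.2 per Mb between the outermost summits and 15.6 there outside soft-masked repeats, both added after seeing the data. With the former, 3L (20.4) in place of 2L (13.1) was the densest large arm, and its interval no longer overlapped that of 2L. That count trimmed 3L but hardly 2L, whose last summit lay at the end of the arm. The intervals of divergent and convergent gaps came to overlap. In all, 43 alternatives of the main results were labelled unchanged. For counts this means within 1.5 times of the main value, and for tested differences the same direction and side of the threshold. Direction was followed for G+C content, signal shares, any E-box, BEAF, DREF and the called 6-mers, and none of these reversed. Single motifs were not followed. Some that did not pass changed direction with the flank, such as CAAATG, in 43 summit windows, 35 to the right and 44 to the left. No paired analysis was possible because there is 1 condition. The depth is unknown, so a weak member cannot be told apart from one that is poorly covered.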
